A study of Sus scrofa with 16 samples.

Results

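EFHD1, a mitochondrial calcium-binding protein, was followed in left ventricular tissue of 16 pigs, of which 8 had an infarcted heart (MI) and 8 were sham-operated (Sham). Members were the probe sets that carry EFHD1 as their single gene symbol, and 1 of the 23999 probe sets that are not controls did, so 1 gene of 6765 is described. It was chosen because its signal was much lower in MI animals and because that difference was seen in 1 of 2 sets of arrays, so its difference between MI and Sham and its difference between the array sets are described below without a test. The pigs were Yorkshire x Landrace, 2 to 3 months old, and were sampled 3 weeks after surgery. Each group held 4 females and 4 neutered males by the labels. The region of the ventricle and its distance from the infarct are not in the labels, and each animal gave 1 array. All values are deposited log2 signals, and an animal is called by its group and its number in the labels.

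EFHD1, also called mitocalcin, carries EF-hand motifs, the helix-loop-helix folds that bind calcium, and is found at the inner mitochondrial membrane. Calcium that enters mitochondria through the uniporter of the inner membrane activates dehydrogenases of the citric acid cycle, and in the heart this couples energy production to the beat. In cell lines EFHD1 has been described as a calcium sensor that takes part in mitochondrial flashes, short bursts of matrix activity in single mitochondria. Its close relative EFHD2 binds actin filaments and was not analysed here.

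In the pig assembly Sscrofa11.1 the RefSeq annotation places EFHD1 (Entrez 100153398) on chromosome 15 from 133120092 to 133169430. The probe set was bright enough to be measured in every animal. The 23 control probe sets that have no target in pig RNA reached at most 4.99, and all 16 EFHD1 values lay above that. The mean of EFHD1 over the 16 arrays exceeded 72.0% of all probe sets.

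EFHD1 was lower and far more variable in the infarcted group. In MI animals the lowest value was 5.89, the median 6.82 and the highest 8.26, and in Sham animals these were 7.79, 8.21 and 8.72. The MI values fell into a low and a high range, with MI 1, 2, 4, 5 and 6 below every Sham animal and MI 3, 7 and 8 inside the Sham range. The mean was 7.09 ± 0.92 (SD, n = 8) in MI and 8.21 ± 0.36 (n = 8) in Sham animals. The difference, averaged over females and males, was -1.12 (SE 0.32) on the log2 scale, a 2.18-fold lower signal, and it was -1.26 without MI 7, whose sex label is in doubt. Among the 6765 genes on the array 3, EFHD1 included, had a difference that low or lower. For background, 7.63% of genes passed between MI and Sham animals at an adjusted p under 0.05 by limma, and in 5.38% of genes at least 5 of 8 MI animals lay below all Sham animals. Because EFHD1 was picked for this contrast, nothing is read from these shares.

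**Figure D1:**
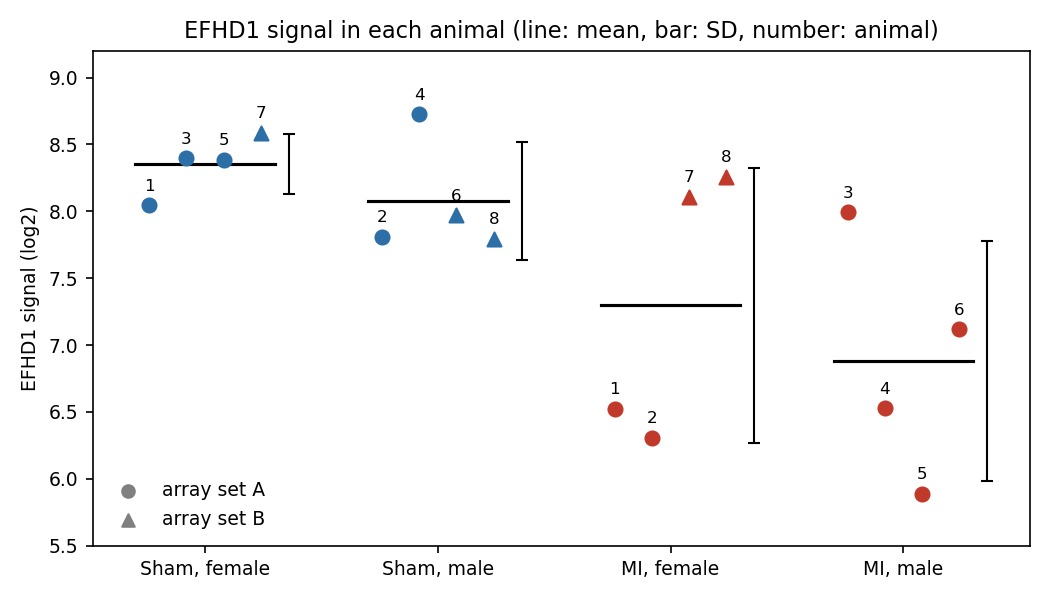
EFHD1 log2 signal of each animal by group and sex, with circles for array set A, triangles for set B, a line at the mean and a bar for the SD (n = 4 in each column). MI 1, 2, 4, 5 and 6 lie between 5.89 and 7.12, below every Sham animal, while MI 3, 7 and 8 lie between 7.99 and 8.26.

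The spread among MI animals was large, as follows from choosing a gene whose difference was seen in 1 array set, and it is given as a description. Their values spanned 2.37 on the log2 scale against 0.93 among Sham animals, and their SD was 2.57 times that of Sham animals. Among the 6765 genes 36, EFHD1 included, had an SD in MI animals at least as large. In Sham animals 1008 genes varied as much as EFHD1 or more. Within its own array, EFHD1 lay above 44.9% of the probe sets in MI 5, the lowest animal, and above 85.1% in Sham 4, the highest.

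A technical split of the arrays, absent from the labels, entered the choice of EFHD1. Its 2 sets are the sides of the largest gap in the mean signal of 36 poly-A spike-in probe sets (RNA added before labelling) minus that of 27 hybridisation control probe sets. Set A held 11 arrays (MI 1 to 6 and Sham 1 to 5) and set B the other 5 (MI 7 and 8 with Sham 6 to 8). The 2 arrays nearest the gap were Sham 2 in set A, at -2.45, and MI 7 in set B, at -3.77. MI 7 is labelled female, yet its signal for EIF1AY, a translation factor on chromosome Y, was 9.51, while the other females lay between 3.00 and 3.51.

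In set A, EFHD1 was 6.52 in MI 1, 6.30 in MI 2, 7.99 in MI 3, 6.53 in MI 4, 5.89 in MI 5 and 7.12 in MI 6. The Sham animals of that set had 8.04, 7.81, 8.40, 8.72 and 8.38 in the order of their numbers. Within set A, then, 5 of 6 MI animals lay below all Sham animals and MI 3 lay among them. The means were 6.73 ± 0.74 (n = 6) and 8.27 ± 0.35 (n = 5), a difference of -1.55 or 2.92-fold lower. In set B, EFHD1 was 8.11 in MI 7 and 8.26 in MI 8, against 7.97 in Sham 6, 8.59 in Sham 7 and 7.79 in Sham 8. Both MI values lay inside the Sham range there, and the means were 8.18 ± 0.10 (n = 2) and 8.12 ± 0.42 (n = 3), a difference of 0.07.

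Sham animals had similar EFHD1 signals in both sets, so the contrast between the sets lay in the MI arrays. The set A difference minus the set B difference was -1.61, and 9 of the 6765 genes, EFHD1 included, had a gap between sets at least that large in size. It lay between -1.86 and -1.44 when any 1 animal was left out. With 2 MI arrays in set B, these numbers describe the arrays at hand. The high value of MI 3 lies in set A, so the arrays with a high signal in MI were not all in set B.

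The control signals of the same arrays are given beside these values. Among the MI arrays of set A, MI 3 had the lowest spike-in difference (-2.16), and the other 5 ran from -1.93 to -1.40. Sham 2 and Sham 5, at -2.45 and -2.34, lay closer to set B than MI 3. The actin control's signal at its 3' end minus that at its 5' end, a measure of how far labelling reached along the transcript, was 1.54 in MI 7 and 1.51 in MI 8. It was 3.04 in MI 3, the highest of the 16 arrays, and between 2.21 and 2.83 in MI 1, 2, 4, 5 and 6. MI 3, 7 and 8, the MI animals inside the Sham range for EFHD1, held the highest and the 2 lowest actin ratios of their group. The actin ratio also divided the array sets without overlap, at 2.21 to 3.04 in set A and 1.21 to 1.54 in set B. Sham animals of set A had ratios of 2.27 to 2.91 and EFHD1 signals of 7.81 to 8.72. Those of set B had ratios of 1.21 to 1.49 and EFHD1 signals of 7.79 to 8.59. The part of spike-in set and RNA quality in the EFHD1 values was not tested.

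**Figure D2:**
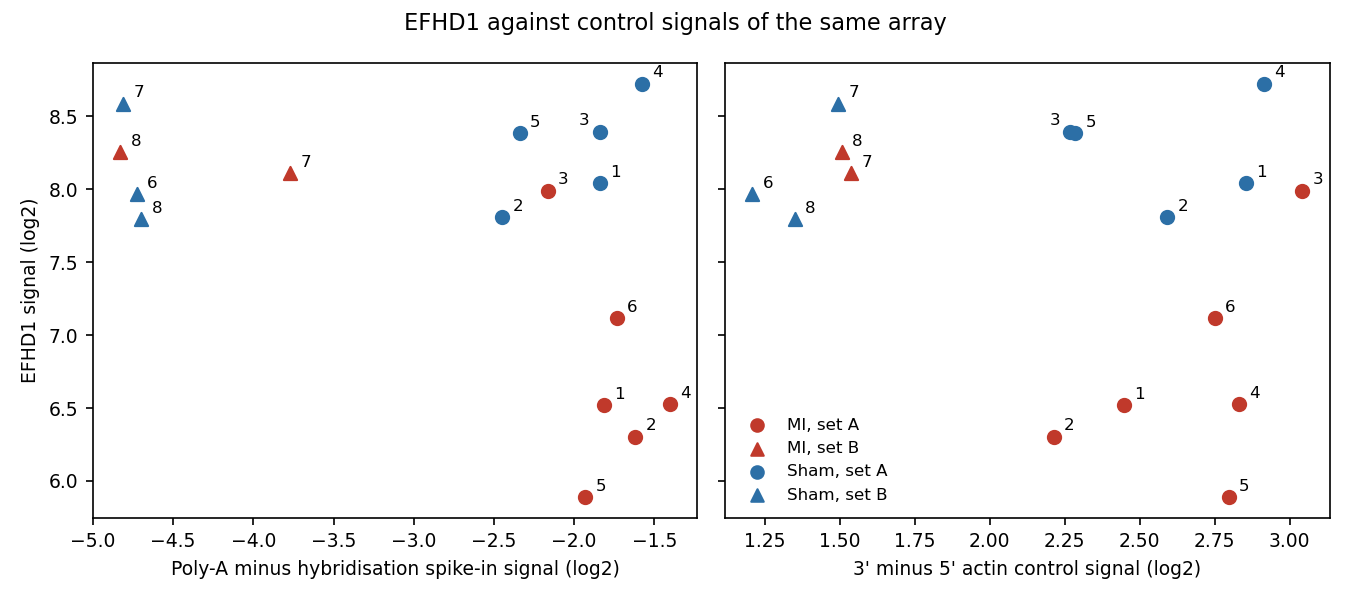
EFHD1 log2 signal of the 16 arrays against the poly-A minus hybridisation spike-in signal (left) and the 3' minus 5' actin signal (right), both log2, with animal numbers beside the points. MI arrays of set A cover -2.16 to -1.40 on the left axis and hold EFHD1 values from 5.89 to 7.99. Sham arrays of set A cover -2.45 to -1.58 and hold 7.81 to 8.72.

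Sex was not itself part of the choice of the gene, but the array sets were. All MI males were in set A, while MI 7 and MI 8, labelled female, were in set B. The comparison of the sexes was therefore not independent of the choice. In females EFHD1 ran from 6.30 to 8.59 with a median of 8.18, and in males from 5.89 to 8.72 with a median of 7.80, so the sexes overlapped over most of their range. Females were higher than males by 0.35 (SE 0.32, 95% confidence interval -0.34 to 1.04), and the difference did not pass (limma, adjusted p = 0.998; at least 0.949 in each of 25 alternatives). Without MI 7 it was 0.21, and in set A alone it had the other sign (-0.23, adjusted p = 0.967). Over all probe sets 14 of 23999, or 0.0583%, passed between females and males. The interval includes a difference as large as 1.04 in favour of females, so the data do not show that the sexes had equal EFHD1.

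Both sexes had lower EFHD1 means in MI. In females the means were 7.30 ± 1.03 in MI and 8.35 ± 0.23 in Sham animals (n = 4 each), with MI 1 and MI 2 low and MI 7 and MI 8 high. In males they were 6.88 ± 0.89 and 8.07 ± 0.44 (n = 4 each), with MI 3 the only male of the MI group above 7.12. The difference was -1.06 (SE 0.46) in females and -1.19 (SE 0.46) in males. Since all 4 MI males were in set A and the MI females were divided between the sets, sex and array set are mixed in these values.

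The cell makeup of the samples was read from marker genes. All 11 measured ventricular muscle markers, such as MYH7 and MYL2, had high mean signals, from 11.5 to 14.6, and 0 of the 11 passed between MI and Sham animals by limma (0 at an unadjusted p under 0.05, against 18.1% of all genes). Their summed linear signal ran from 172133 to 185917 in MI and from 174326 to 187049 in Sham animals. The 3 atrial markers gave 516 to 1045 and 511 to 1231 in the same order, and 0 passed by limma (0 unadjusted). Among 6 fibroblast markers 0 passed by limma (0 unadjusted), with sums of 12871 to 18986 in MI and 14191 to 25660 in Sham animals. Of 5 endothelial markers 0 passed by limma (1 unadjusted), and of 3 smooth muscle markers 0 (0 unadjusted).

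Some blood and fat cell markers did move between the groups, where 7.63% of all genes passed. Mean signals were below background for 2 of the T and NK, 2 of the adipocyte, 1 of the macrophage and 3 of the skeletal muscle markers. Of 7 T and NK lymphocyte markers 4 rose (CD3D, CD247, CD8B and IL7R) and CD4 fell, with summed signals of 312 to 499 in MI and 315 to 535 in Sham animals. Of 4 erythroid markers HBM and AHSP rose (482 to 1009 against 430 to 666), and of 3 macrophage markers CD14 rose (922 to 2207 against 1004 to 1465). Of 5 adipocyte markers ADIPOQ and PPARG rose and RETN fell (2837 to 5032 against 2015 to 4739). GFAP rose among 3 nerve and Schwann cell markers (454 to 636 against 399 to 594), and MYH2 among 5 skeletal muscle markers (14135 to 17063 against 15629 to 17719). CKM, 1 of these 5, is also counted among the ventricular muscle markers, so the last sum does not measure skeletal muscle alone. The part of these cells in the EFHD1 values was not tested. In whole tissue, fewer cells of a type and less RNA per cell cannot be told apart.

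The other genes of mitochondrial calcium handling did not share the size of the EFHD1 difference. Of 11 measured genes of mitochondrial calcium uptake and release 0 passed between MI and Sham animals by limma. At an unadjusted p under 0.05 there was 1, against 18.1% of all genes. The differences ran from -0.18 to 0.12 with a median of 0.02. The median over all 6765 genes was 0.00. STOML2, a scaffold protein of the inner membrane, was 9.31 ± 0.16 in MI against 9.49 ± 0.11 in Sham animals, which did not pass (-0.18, SE 0.07, adjusted p = 0.137; 0.0440 with array weights, where it passed, in a range of 0.0440 to 0.948 over 27 alternatives). MCUR1, a regulator of the uniporter, differed by 0.12 (adjusted p = 0.545), PPIF, the cyclophilin of the permeability transition pore, by 0.11 (0.683) and YME1L1, a protease of the inner membrane, by 0.08 (0.649). VDAC1, VDAC2 and VDAC3, the channels of the outer membrane, differed by 0.02, 0.03 and 0.00 (adjusted p from 0.843 to 0.992). MCUB, a subunit that dampens the uniporter, differed by -0.01 (adjusted p = 0.951), and SLC8B1, which carries calcium out of mitochondria in exchange for sodium, by -0.06 (0.794).

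A list of mitochondrial carriers, motility proteins and enzymes, some of them calcium-responsive, gave the same count. Of its 15 measured members 0 passed by limma (0 unadjusted, against 18.1% of all genes). The differences ran from -0.19 to 0.27 with a median of 0.01. IDH3G, a subunit of the calcium-activated isocitrate dehydrogenase, was 10.11 ± 0.27 in MI against 10.30 ± 0.19 in Sham animals (-0.19, SE 0.11, adjusted p = 0.351). PDP2, a phosphatase of pyruvate dehydrogenase, differed by 0.11 (adjusted p = 0.335), and SLC25A24, a carrier of ATP and phosphate with EF hands, by 0.18 (0.541). GPD2, the calcium-sensitive glycerol phosphate dehydrogenase, differed by 0.27 (SE 0.25, adjusted p = 0.585), while another of its 3 probe sets, with signals below background, passed in the other direction (-0.36, adjusted p = 0.00163).

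Among EF-hand proteins outside these lists 2 genes rose and 0 fell, of 40 measured. At an unadjusted p under 0.05 by limma there were 6 of the 40, against 18.1% of all genes. Over all genes 4.12% passed as higher and 3.5% as lower in MI, so the count in the list was near that of all genes. CAPN3, the muscle calpain, ran from 4.94 to 5.39 with a median of 5.06 in Sham animals and from 5.10 to 5.69 with a median of 5.58 in MI animals. The groups overlapped, with 6 of 8 MI animals above all Sham animals. The difference was 0.43 (SE 0.09, adjusted p = 0.00547), and 0.45 in set A and 0.30 in set B. Its signal in Sham animals lay close to the control level of 4.99. In set B alone the difference did not pass (adjusted p = 0.555, in a range of 0.00123 to 0.555 over 27 alternatives). The other probe set of CAPN3, below background at means of 4.37 in MI and 4.25 in Sham animals, differed by 0.11 and did not pass by limma (adjusted p = 0.561).

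CIB2, a small calcium- and integrin-binding protein, ran from 6.04 to 6.79 with a median of 6.45 in Sham and from 6.66 to 7.68 with a median of 6.85 in MI animals, with 4 of 8 MI animals above all Sham animals. The difference was 0.49 (SE 0.14, adjusted p = 0.0302). The other probe set of CIB2 passed in the opposite direction (-0.23, adjusted p = 0.0234), so the direction for the gene depends on the probe set. The rise of CIB2 did not pass without any 1 of MI 4, MI 6, MI 7, Sham 1, Sham 2, Sham 3 or Sham 4 (adjusted p from 0.0501 to 0.0624), nor among the 16000 brightest probe sets (0.0578), in a range of 0.000714 to 0.338 over 27 alternatives. EHD4, an endosomal EF-hand protein, differed by -0.33 (SE 0.10, adjusted p = 0.053), and passed without MI 3, MI 8 or Sham 1 (0.0282 to 0.0404) and without sex in the model (0.0487), in a range of 0.0282 to 0.567 over 27 alternatives. S100A8, a calcium-binding protein of neutrophils, differed by -0.21 (adjusted p = 0.10) with signals below background, and passed without MI 7 (0.0377) and with array weights (0.0473; 0.0377 to 0.732 over 26 alternatives).

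Markers of mitochondrial content and dynamics gave 0 passing genes of 26 by limma (2 unadjusted, against 18.1% of all genes). Their median difference was -0.04, and 18 of the 26 were lower in MI, against 3292 of all 6765 genes. SDHA, a subunit of complex II, was 12.13 ± 0.26 in MI against 12.37 ± 0.16 in Sham animals (-0.23, SE 0.10, adjusted p = 0.183). The other probe set of SDHA differed by -0.15 (adjusted p = 0.593 by limma). LONP1, the protease of the matrix, differed by -0.25 (adjusted p = 0.214), FIS1, which takes part in mitochondrial division, by -0.22 (0.276) and HSPD1, a matrix chaperone, by 0.19 (0.13). For SDHA, LONP1 and FIS1, 5 of 8 MI animals lay below all Sham animals, the count also found for EFHD1, but their differences were a fraction of its size. In set B their differences were 0.00, 0.00 and 0.01. Over the 4 lists together, 2 of 92 distinct genes passed, against 7.63% of all genes.

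**Figure D3:**
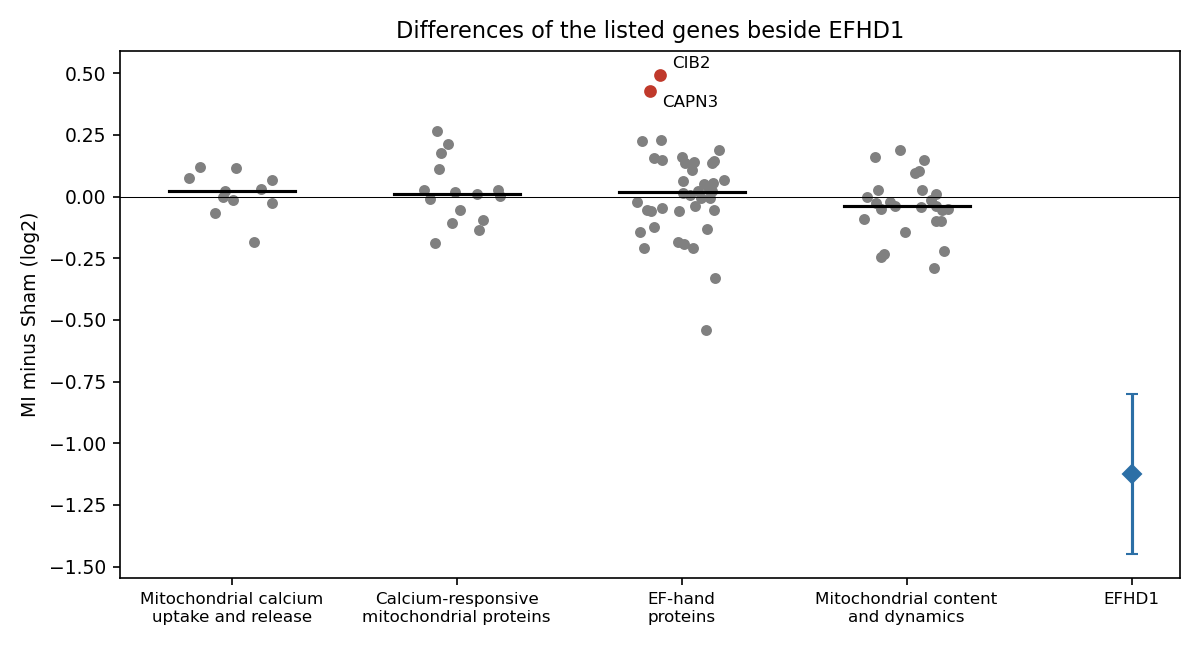
MI minus Sham differences (log2) of the measured genes of the 4 lists, 1 point per gene with a line at the median, and EFHD1 with its SE. Red points passed at an adjusted p under 0.05. All listed genes lie between -0.54 and 0.49, while EFHD1 lies at -1.12.

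The genes whose signals followed EFHD1 most closely were ranked by Pearson's r over the 16 arrays among 6764 other genes. The arrays share group, array set and labelling, so r describes likeness on these arrays and no p is attached. The 8 highest were VGLL4 (r = 0.87), CMYA5 (0.86), ABTB2 (0.84), FCGBP (0.83), NAP1L4 (0.83), CLPB (0.83), PINK1 (0.82) and DIS3L2 (0.82). They include VGLL4, a cofactor that opposes YAP at TEAD factors, CMYA5, a cytoskeletal protein of heart and skeletal muscle, PINK1, the kinase that marks damaged mitochondria for removal, and CLPB, a mitochondrial protein disaggregase. The 4 most opposite were ATP6AP2 (r = -0.88), an accessory protein of the proton pump, NOP16 (-0.88), a nucleolar protein, DCTN5 (-0.86), a dynactin subunit, and GMFG (-0.85), an actin regulator of white blood cells. In all, 12 genes reached an r of at least 0.8 and 16 an r of -0.8 or less. FCGBP, with means of 4.89 in MI and 4.98 in Sham animals, lay at the control level of 4.99.

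The 8 like genes had smaller ranges than EFHD1, and most of them differed from it in MI 3. In MI 3, where EFHD1 lay inside the Sham range, 5 of the 8 (ABTB2, NAP1L4, CLPB, PINK1 and DIS3L2) lay below all Sham animals and VGLL4, CMYA5 and FCGBP did not. CMYA5 was lowest in MI 5 (10.99) and MI 2 (11.27), and was 11.79 in MI 3, 11.80 in MI 7 and 11.79 in MI 8, inside the Sham range of 11.70 to 12.44. PINK1 was 10.31 in MI 5 and 10.35 in MI 2 and reached 11.21 in MI 7 and 11.24 in MI 8, above all Sham animals (10.82 to 11.17). Its value in MI 3 was 10.71. CLPB ran from 6.91 to 7.31 in MI and from 7.33 to 7.60 in Sham animals, without overlap, while its other probe set showed no such difference (-0.02, means 5.88 and 5.90). In 0.754% of all genes the MI animals lay below the Sham animals without overlap. In ATP6AP2 the 6 MI animals of set A (9.34 to 9.54) lay above all Sham animals (8.86 to 9.12), and MI 7 and MI 8 had 9.05 and 8.83. MI minus Sham differences of the 8 like genes lay between -0.54 for ABTB2 (-0.09 for its other probe set) and -0.09 for FCGBP, and, since the genes were chosen by their likeness to EFHD1, they are given without a test.

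Part of the likeness came from the groups and sets themselves. After the mean of each of the 4 combinations of group and array set was removed, r with EFHD1 was 0.80 for CMYA5 and 0.77 for FCGBP. It was between 0.46 and 0.63 for the other 6 like genes. FCGBP signals lay near the control level of 4.99. For CMYA5 r was 0.92 within the 8 MI animals and 0.48 within the 8 Sham animals, and for VGLL4 it was 0.92 and 0.23. By Spearman's rho 5 of the 12 named genes stayed among the 8 highest and 4 lowest. CMYA5 (rho 0.79), ABTB2 (0.83), FCGBP (0.80), NAP1L4 (0.78) and GMFG (-0.86) were these 5.

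**Figure D4:**
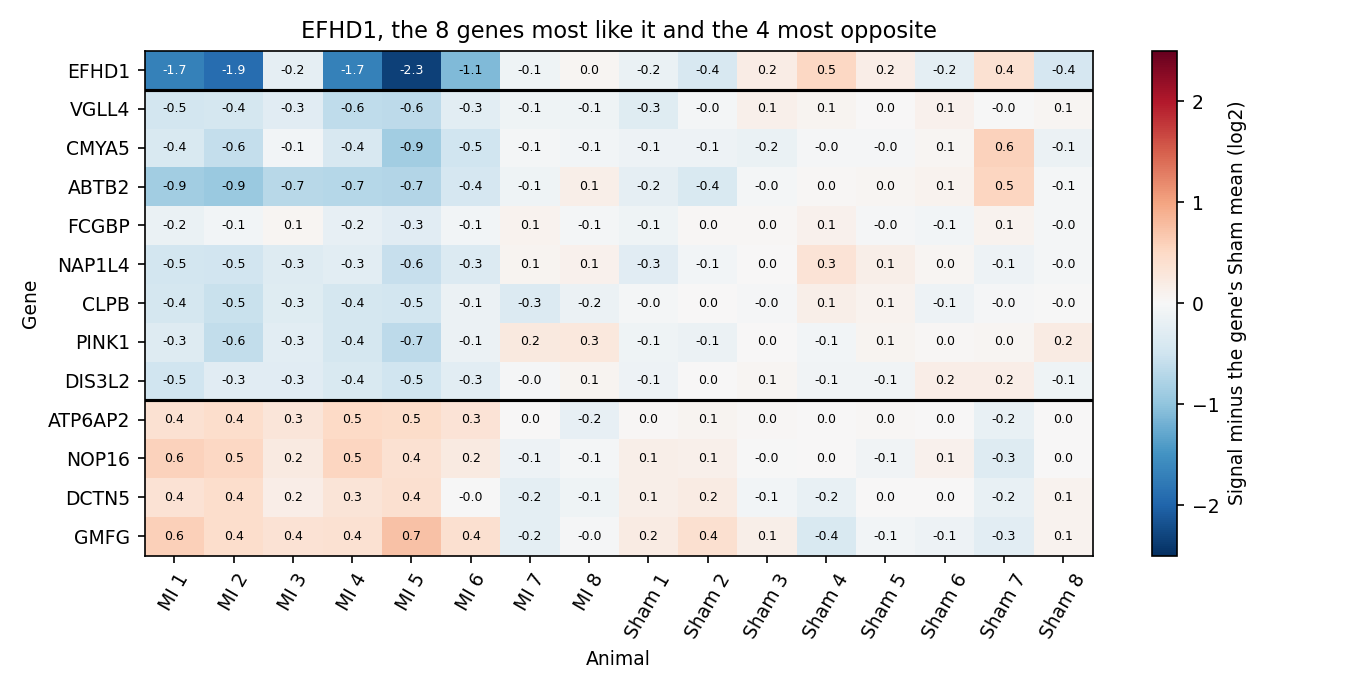
Signal minus the gene's Sham mean (log2) in each of the 16 animals, for EFHD1 (top), the 8 genes most like it and the 4 most opposite. EFHD1 lies more than 1 below its Sham mean in MI 1, 2, 4, 5 and 6, and departures of the other genes are smaller and in most of them extend to MI 3.

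Genes beside EFHD1 on chromosome 15 were measured in part. Of 19 annotated genes within 500000 bp on either side, 3 had a probe set with a single symbol. EIF4E2, a cap-binding protein that lies from 133060054 to 133092624, differed by 0.05 between MI and Sham animals (SE 0.07, adjusted p = 0.73), and LOC100157453, from 132937975 to 132941979, by -0.07 (SE 0.09, adjusted p = 0.716). DIS3L2, an exoribonuclease that lies from 132540784 to 132902943, differed by -0.27 (SE 0.08, adjusted p = 0.0536; 0.0236 to 0.909 over 27 alternatives). The other probe set of DIS3L2 passed in the same direction (-0.34, adjusted p = 0.0344). DIS3L2 is also 1 of the 8 genes most like EFHD1, whereas EIF4E2, the nearest measured gene, had an r of -0.32.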

How the data were processed

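The deposited values are log2 signals of 1 porcine Affymetrix array per animal, as judged from their range and from the equal median of 6.24 in all 16 arrays. The lowest value, 2.87, was also equal in all 16 arrays, and the highest, 14.86, in all but Sham 7 (14.92). The arrays were thus already matched in these values when deposited. Per the labels' protocols, frozen myocardium was crushed, Trizol and a column clean-up gave total RNA, and biotinylated cRNA was prepared. How the authors normalized the arrays, and with which software, is not given in the sources used here. No offset was added. Precision is limited by the number of arrays.

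The 124 control probe sets were left out, and limma 3.58.1 (R 4.3.3) was run on the other 23999 in 1 fit with a coefficient for each of the 4 combinations of group and sex (12 residual and 3.28 prior degrees of freedom). Tests were two-sided, with Benjamini-Hochberg adjustment across all 23999, and passing means an adjusted p under 0.05. Of all probe sets 10069 carried 1 symbol, and each of 6765 genes was represented by its brightest. Symbols came from the platform's annotation and positions from RefSeq by Entrez identifier.

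EFHD1, the gene lists and the tests were chosen with earlier results of these data known. Named were EFHD1, the passing members of each list and those with the lowest p up to 4 per list, and the 8 genes most like and 4 most unlike EFHD1. A few further genes are given to fill in roles: VDAC1, VDAC2, VDAC3, MCUB and SLC8B1, the measured neighbours on the chromosome, and the passing cell markers. PPARGC1A is given for its difference and its values by array set.

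On simulated data with 23999 probe sets, the fit recovered 96 of 100 probe sets changed by 1 (log2) and 59 of 100 changed by 0.5 between MI and Sham. For female against male it recovered 97 and 61. Among unchanged probe sets 6 were called in the first comparison and 9 in the second. The simulated noise was independent between probe sets and arrays and held no array set effect. These rates therefore need not hold for genes such as EFHD1 that differ between array sets. The alternatives were group without sex, the animal number as a block, quantile normalization, median centring, the 16000 brightest probe sets, an offset of 32, array weights, robust estimation with an intensity trend, the array set as a block or alone, and leaving out each animal. Leaving out each animal for the difference between array sets was added after seeing the data.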

Additional observations from a re-analysis of the deposited data

Results flagged for a closer look

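Of 66 groups of values checked, 4 held an animal far from the others, where chance gives about 1 in 20. CMYA5 was 12.44 in Sham 7 against 11.70 to 11.91 in the other Sham animals, and ATP6AP2 was 8.86 in Sham 7 against 9.04 to 9.12. VGLL4 was 7.47 in Sham 1 against 7.73 to 7.89 in the other Sham animals. S100A8 was 4.35 in MI 7 against 3.98 to 4.09 in the other MI animals. EFHD1 had no such animal in MI, in Sham or in the 4 combinations of group and sex. Outside the comparisons, EIF1AY, on chromosome Y, was 9.51 in MI 7, labelled female, against 3.00 to 3.51 in the other 7 females.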

How the results depend on the processing

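The EFHD1 difference between MI and Sham stayed within 1 SD of its value under 27 of 28 alternatives, from -1.62 in set A alone to -0.93 with an offset of 32. It ran from -1.31 to -0.96 when 1 animal was left out, and in set B alone it was 0.065. Several alternatives could not move it. It was -1.12 by construction without sex, with the number as a block, among the 16000 brightest, with an intensity trend and over its 1 probe set. Quantile normalization and median centring met arrays that already shared their median and lowest value, and left it at -1.12. The count of 27 therefore overstates how far the value was put to the test. The female minus male difference of EFHD1 kept its sign under 24 of 25 and was -0.23 in set A alone (0.18 to 0.53 with 1 animal left out). With 1 animal left out, 2045 to 2537 probe sets passed between MI and Sham, 13 to 18 between the sexes and 1 to 3 listed genes between MI and Sham; that last count was 1 without MI 4, MI 6, Sham 2, Sham 3 or Sham 4. Among the 16000 brightest probe sets, 654 passed between MI and Sham against 2527 of all, and 1 listed gene against 2. With array weights 4 listed genes passed. In set B alone, with 5 arrays, 1 probe set and 0 listed genes passed by limma. By Spearman's rho 5 of the 12 genes named for likeness were kept. Whether the animal numbers in the labels pair the animals could not be told from the values. Of 8 same-numbered pairs 4 had a correlation of deviations over 0.1, the highest 0.46, and 3 of 16 animals correlated best with their own number. Same-numbered animals can also share an array set, so this check cannot exclude pairing. With the number as a block the EFHD1 difference was -1.12, the female minus male difference of EFHD1 0.46, and 2645 probe sets passed between MI and Sham, 0 between the sexes against 14, and 2 listed genes. Among the 16 listed genes named by rule and the 3 neighbours, which were run under each alternative, differences that changed sign were, in set B, MCUR1 (-0.0175), YME1L1 (-0.12), SLC25A24 (-0.23), LONP1 (0.0023) and FIS1 (0.0123), and, in set A, PPIF (-0.11) and GPD2 (-0.0576), none of which passed by limma in any alternative. Of the like and opposite genes, described by set only, NAP1L4 (0.13), PINK1 (0.17), FCGBP (0.02), ATP6AP2 (-0.04), NOP16 (-0.02), DCTN5 (-0.14) and GMFG (-0.04) had the other sign in set B. Of the other listed genes given with values, also by set only, MCUB (0.06), SLC8B1 (0.04), VDAC1 (-0.06) and VDAC2 (-0.02) had it in set A, and PPARGC1A (0.52) in set B. The cause of these changes was not tested.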
